A study of Homo sapiens with 6 samples.

Results

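The high mobility group (HMG) genes encode small, abundant proteins that bind chromatin and change its shape. HMGA proteins bind the minor groove of AT-rich DNA through AT-hook motifs, HMGB proteins bend DNA through HMG boxes, and HMGN proteins bind nucleosomes. HMGA1 and HMGA2 are high in embryonic cells and in many tumours, and HMGB1 can also leave the cell and act as an inflammatory signal. By gene symbol, 10 members of a table of 61806 genes were taken: HMGA1, HMGA2, HMGB1, HMGB2, HMGB3, HMGN1, HMGN2, HMGN3, HMGN4 and HMGN5. The family was chosen by the level of HMGA1, which was high in the control and lower in the other group, so the difference of HMGA1 is a description without a test. The other 9 members entered by family name.

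The RNA came from U87-MG, an established human glioblastoma cell line, and the study asked which genes change when GRIK1, a kainate-type glutamate receptor subunit, is knocked down. There were 3 negative control libraries (NC, genotype given as wildtype) and 3 libraries labelled GRIK1 siRNA (genotype given as GRIK1 knockdown). The series text speaks of shRNA where the titles say siRNA, and the labels do not say whether the numbers 1 to 3 are replicate cultures or siRNA sequences. The study's methods list 3 GRIK1 siRNA sequences under these same names, and its text says that later experiments used the first of them, without tying either to these libraries. P-values therefore measure only the spread between these libraries, which may be technical. The depth was 11099909 to 14006968 counts per NC library and 12384768 to 13210932 counts per GRIK1 siRNA library.

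GRIK1 itself was not lower in the libraries labelled GRIK1 siRNA. Its counts were 18, 9 and 8 in NC and 15, 20 and 20 in GRIK1 siRNA. On the log2(FPKM + 1) scale the difference was 0.12 (two-sided exact permutation test, p = 0.4, where 0.1 is the smallest p that 3 libraries against 3 allow). Group names below are those of the labels. NC library 3 stood apart from the other 5 libraries: 9.37% of its counts lay on 86 ribosomal protein genes, against 4.79% to 5.50% elsewhere, and it had the fewest genes with a count (23902, against 24959 to 27049). Common dispersion was 0.0391 with it and 0.00298 without it, so the members, the lists and the calls that change are given both ways. Of 10 markers of glioma lines 9 were detected (FPKM above 0) in all 6 libraries. Their summed level was 2208 to 2406 FPKM in NC and 2163 to 2273 FPKM in GRIK1 siRNA, most of it from S100A6 and VIM. Mean FPKM over the 6 libraries was 1048 for S100A6, 1001 for VIM, 133 for TNC, 61.3 for CD44 and 14.3 for EGFR. It was 2.98 for CHI3L1, 2.83 for SOX9, 0.50 for NES and 0.01 for S100B. The astrocyte marker GFAP was close to 0, with 13, 11 and 8 counts in NC and 39, 36 and 38 in GRIK1 siRNA, and was not tested. The summed level of 3 genes at 9p21 that U87-MG is known to lack was at most 0.09 FPKM. Epithelial, leukocyte, endothelial, neuron and oligodendrocyte markers summed to at most 2.81 FPKM each in any library.

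FPKM is the count scaled to the exonic length of the gene and to the library total, so it allows levels to be compared between genes. In FPKM HMGA1 had the highest level of the family in both groups, with a rank of 129 among 15870 tested genes in NC and 325 in GRIK1 siRNA. This order rests on the exonic size in the table, 2327 bases for HMGA1 and 15070 for HMGA2. Normalized CPM is counts scaled to the library but not to length. In it the mean of HMGA2 was above that of HMGA1, at 576 against 533 in NC and 288 against 214 in GRIK1 siRNA. NC library 3 alone went the other way, with HMGA2 at 435 and HMGA1 at 533. In NC the mean FPKM levels followed the order HMGA1, HMGN2, HMGN1, HMGA2, HMGN3, HMGB2, HMGN4, HMGB1, HMGB3 and HMGN5. In GRIK1 siRNA, HMGA2 stood in place 7 of 10, and HMGN4, HMGN3, HMGB2 and HMGA2 had ranges that overlapped from each to the next. In NC the ranges of HMGN1 and HMGN2 did not overlap, and those of HMGA2, HMGN3, HMGB2, HMGN4 and HMGB1 overlapped from each to the next. HMGB3 and HMGN5 were the lowest members in both groups, and their ranges overlapped in both.

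**Figure D1:**
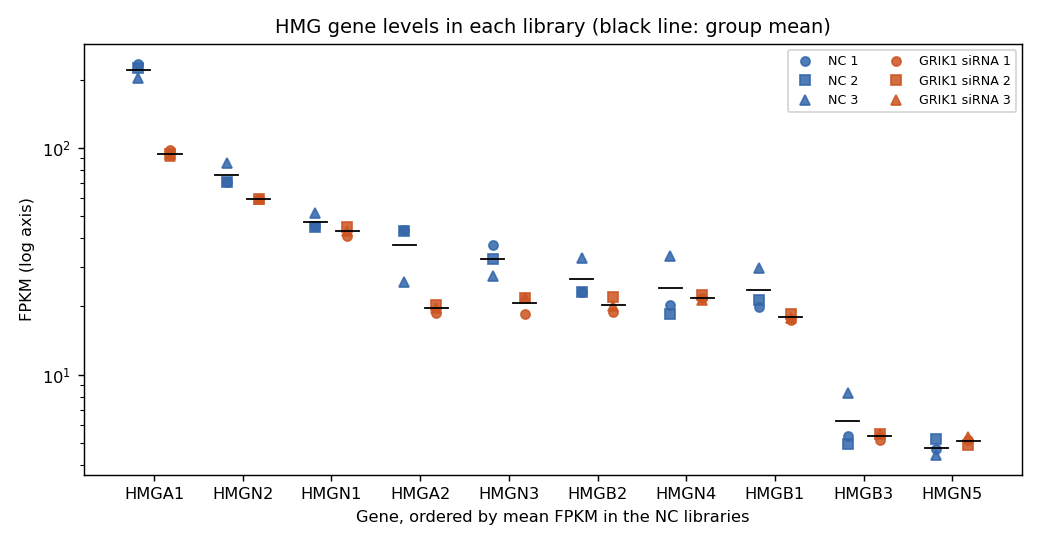
FPKM (log axis) of the 10 HMG genes in each of the 6 libraries, with NC in blue, GRIK1 siRNA in orange and the group mean as a black line. HMGA1 lies at 203 to 235 FPKM in NC and at 92.0 to 97.9 FPKM in GRIK1 siRNA.

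HMGA1 was lower in GRIK1 siRNA. In NC its FPKM was 235, 225 and 203, listed by library number here and below, while GRIK1 siRNA had 97.9, 93.6 and 92.0. The groups did not overlap, and the lowest NC library was above every GRIK1 siRNA library. The mean fell from 221 ± 16.4 to 94.5 ± 3.04 FPKM (SD, n = 3 each), a ratio of NC to GRIK1 siRNA of 2.34. The fitted log2 fold change was -1.31 (SE 0.12), and it was -1.31 (SE 0.05) without NC library 3. In normalized CPM, NC library 3 had 1.00 times the mean of NC libraries 1 and 2.

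HMGA2, the second AT-hook gene of the family, also fell. Its FPKM was 43.3, 43.0 and 25.6 in NC and 18.8, 20.3 and 19.8 in GRIK1 siRNA. NC library 3 lay between the other NC libraries and the GRIK1 siRNA libraries, at 0.672 times the normalized CPM of NC libraries 1 and 2, and the groups did not overlap. The mean was 37.3 ± 10.1 in NC and 19.6 ± 0.792 FPKM in GRIK1 siRNA (SD, n = 3 each). The log2 fold change was -0.998 (SE 0.18, edgeR adjusted p = 0.0387), and -1.16 (SE 0.05, edgeR adjusted p = 1.65e-11) without NC library 3. Over all genes tested, 1.48% passed with lower values, and 18.3% without NC library 3.

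HMGN3, a nucleosome binding protein, was the third member to differ. Its FPKM was 37.3, 32.5 and 27.3 in NC and 18.6, 21.7 and 21.7 in GRIK1 siRNA. All NC libraries were above all GRIK1 siRNA libraries. The log2 fold change was -0.72 (SE 0.14, edgeR adjusted p = 0.0409), and -0.78 (SE 0.10, edgeR adjusted p = 1.38e-05) without NC library 3. Both calls were lost with total count scaling (edgeR adjusted p = 0.0663 for HMGA2 and 0.0726 for HMGN3) and in limma-trend on log2(FPKM + 1) (adjusted p = 0.0839 and 0.0735). Neither HMGA2 nor HMGN3 passed when any 1 library other than NC library 3 was left out, and then no gene of the 15870 passed in edgeR (2238 to 4434 genes had an unadjusted p under 0.05). Their adjusted p over the 6 fits that each left out 1 library ran from 1.65e-11 to 0.229 for HMGA2 and from 1.38e-05 to 0.229 for HMGN3.

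**Figure D2:**
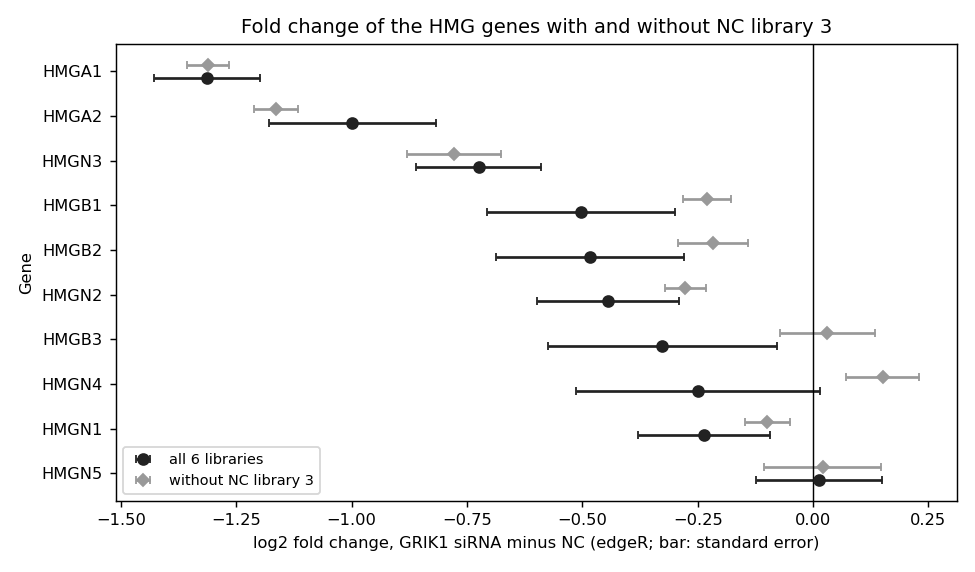
Log2 fold change (GRIK1 siRNA minus NC, edgeR) of each HMG gene with its standard error as a bar, from all 6 libraries (black) and without NC library 3 (grey). HMGA1, HMGA2 and HMGN3 lie farthest below 0 both ways, and HMGB3 and HMGN4 change sign.

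Thus 2 of the 9 members that entered by name passed, both lower, against 1.48% of all genes, and 0 passed higher, against 1.61% (5 of 9 were lower with an unadjusted p under 0.05, against 13.2% of all genes). Without NC library 3, 5 of 9 passed, all lower, in a fit where 18.3% of all genes passed lower and 16.9% higher. In normalized CPM, 6 of the 9 had groups that did not overlap and were lower, against 19.0% of all genes tested. The log2 fold change was below 0 in 8 of the 9, against 51.4% of all genes, and without NC library 3 in 6 of the 9, against 49.3%. The median of the 9 was -0.45, against -0.02 for all genes, and without NC library 3 it was -0.22, against 0.01.

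The HMGB genes gave values that depended on NC library 3. HMGB1, a DNA bender, had 19.9, 21.4 and 29.4 FPKM in NC and 17.4, 18.5 and 17.8 in GRIK1 siRNA, with a log2 fold change of -0.50 (SE 0.20, edgeR adjusted p = 0.181). Without NC library 3 it was -0.23 (SE 0.05, edgeR adjusted p = 0.00238). HMGB2, which rises in dividing cells, had 23.3, 23.2 and 32.8 FPKM in NC and 18.9, 21.9 and 20.1 in GRIK1 siRNA, with a log2 fold change of -0.48 (SE 0.20, edgeR adjusted p = 0.193). Without NC library 3 it was -0.22 (SE 0.08, edgeR adjusted p = 0.0331). Both genes were highest in NC library 3, at 1.62 and 1.60 times the normalized CPM of NC libraries 1 and 2. HMGB3, the third HMG-box member, had 5.36, 4.96 and 8.35 FPKM in NC and 5.14, 5.49 and 5.47 in GRIK1 siRNA, and its groups overlapped. Its log2 fold change of -0.33 (edgeR adjusted p = 0.429) became 0.03 (edgeR adjusted p = 0.853) without NC library 3.

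Among the other nucleosome binding genes, HMGN2 had the highest level. Its FPKM was 71.0, 70.8 and 85.5 in NC and 59.6, 59.6 and 59.5 in GRIK1 siRNA, with no overlap. The log2 fold change was -0.45 (SE 0.15, edgeR adjusted p = 0.138), and -0.28 (SE 0.04, edgeR adjusted p = 0.000112) without NC library 3. HMGN1 had 45.2, 45.0 and 51.5 FPKM in NC and 40.8, 44.7 and 43.0 in GRIK1 siRNA. Its log2 fold change was -0.24 (edgeR adjusted p = 0.332), and -0.10 (edgeR adjusted p = 0.129) without NC library 3. HMGN4, an HMGN2-like gene, had 20.2, 18.5 and 33.4 FPKM in NC and 21.7, 22.5 and 21.4 in GRIK1 siRNA. The value in NC library 3 lay above all other libraries, at 1.95 times the normalized CPM of NC libraries 1 and 2. Its log2 fold change was -0.25 (edgeR adjusted p = 0.574), and 0.15 (edgeR adjusted p = 0.153) without NC library 3. HMGN5, the lowest member, had 4.71, 5.19 and 4.42 FPKM in NC and 5.14, 4.88 and 5.32 in GRIK1 siRNA, with a log2 fold change of 0.01 (edgeR adjusted p = 0.961), and 0.02 (edgeR adjusted p = 0.925) without NC library 3.

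**Figure D3:**
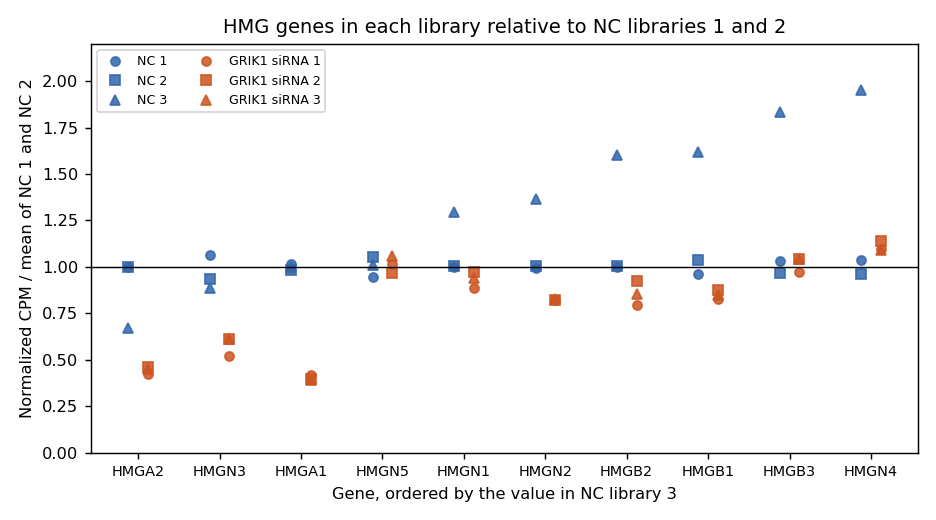
Normalized CPM of each HMG gene in each library, divided by the mean of NC libraries 1 and 2 (line at 1), with genes ordered by NC library 3. NC library 3 lies at 0.672 for HMGA2 and at 1.95 for HMGN4, and HMGA1 in GRIK1 siRNA lies below the line in all 3 libraries.

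NC library 3 had the high ribosomal protein share (9.37%), high values of HMGB1, HMGB2, HMGB3, HMGN1, HMGN2 and HMGN4, and the lower HMGA2 value. HMGN3 and HMGN5 were at 0.886 and 1.01 times the normalized CPM of NC libraries 1 and 2. This is 1 library, and the part of the ribosomal protein share in the results was not tested.

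The summed level of the 10 members was 506, 490 and 502 FPKM in NC and 304, 313 and 306 FPKM in GRIK1 siRNA. The HMGA pair summed to 259 ± 26.3 FPKM in NC and 114 ± 2.44 FPKM in GRIK1 siRNA (SD, n = 3 each), and its share of the family was 55.1%, 54.8% and 45.6% in NC and 38.4%, 36.4% and 36.5% in GRIK1 siRNA. The HMGN genes summed to 184 ± 15.9 and 150 ± 3.92 FPKM, and the HMGB genes to 56.2 ± 12.5 and 43.6 ± 2.21 FPKM. By library, the HMGB sum was 48.5, 49.5 and 70.6 FPKM in NC and 41.5, 45.9 and 43.4 FPKM in GRIK1 siRNA. HMGA1 was 3.32, 3.18 and 2.38 times HMGN2 in NC and 1.64, 1.57 and 1.55 times HMGN2 in GRIK1 siRNA. The ratio of HMGB2 to HMGB1 stayed between 1.08 and 1.19 in all 6 libraries. The sums over all members and over the HMGA pair include HMGA1, so they are descriptions. The HMGN and HMGB sums do not include it and were not tested.

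**Figure D4:**
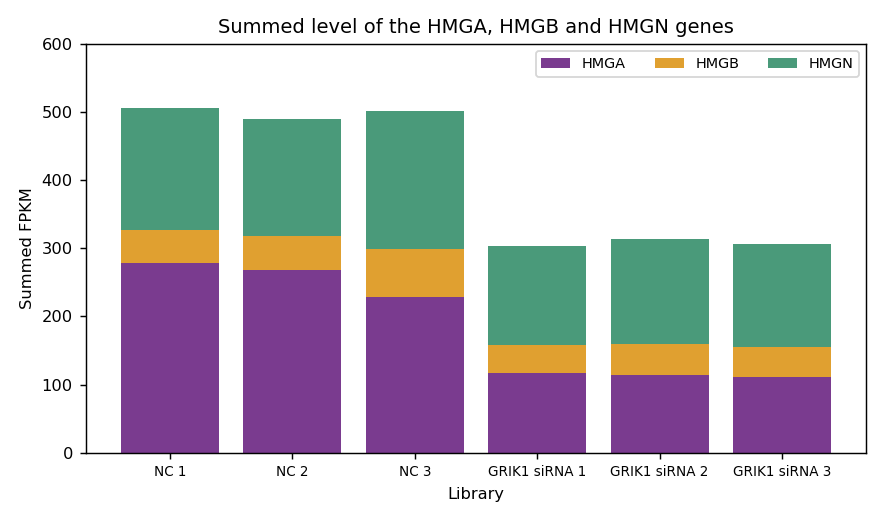
Summed FPKM of the HMGA (purple), HMGB (yellow) and HMGN (green) genes in each library. The whole bar falls from 490 to 506 FPKM in NC to 304 to 313 FPKM in GRIK1 siRNA, and the HMGA part from 229 to 279 FPKM to 112 to 117 FPKM.

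HMGA2 is a well known target of the let-7 microRNAs, which pair with 3′ untranslated regions (3′ UTRs) through bases 2 to 8, the seed. The 9 let-7 family sequences of RefSeq (GRCh38.p14) share the seed GAGGUAG, and 3 of them are shown with the seed in capitals.
hsa-let-7a-5p: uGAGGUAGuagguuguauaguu
hsa-let-7e-5p: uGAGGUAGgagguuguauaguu
hsa-miR-98-5p: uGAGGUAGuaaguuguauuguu
The match to this seed, CTACCTC, was searched on the transcript strand of the longest principal 3′ UTR in GENCODE 29, a search chosen after the values were seen. HMGA2 held 4 matches in 3003 bases, and 14.3% of the 1409 genes with a 3′ UTR of like length held at least 1. HMGA1 held 1 match in 1347 bases, where 8.26% of 1622 genes held at least 1. The other 8 members held 0, and 9.53% of all 11322 genes searched held at least 1. The sites are shown because they lie in the last exon of both HMGA genes, with the match in capitals (GRCh38, plus strand).
HMGA1 site at chr6:34245826-34245853, exon 6 of 6: ttttcctctgttcacaaaCTACCTCtgg
HMGA2 site at chr12:65963295-65963322, exon 5 of 5: ggcgccaacgttcgatttCTACCTCagc
HMGA2 site at chr12:65964530-65964557, exon 5 of 5: tatccccactactcaataCTACCTCtga
HMGA2 site at chr12:65964942-65964969, exon 5 of 5: taattgacttgcaaagacCTACCTCcag
HMGA2 site at chr12:65965795-65965822, exon 5 of 5: tacaatcaaaacacactaCTACCTCtta
A match is a description of the sequence, and mature let-7 was not measured in these libraries. The let-7 axis list held 14 genes, namely microRNA processing genes, LIN28 genes, IGF2BP genes for mRNA binding proteins, and ARID3B. Of these 11 were tested, 0 passed in either direction in edgeR, and the median log2 fold change was 0.36. Without NC library 3, 6 of 11 passed higher and 0 lower, against 16.9% and 18.3% of all genes, with a median of 0.21. LIN28A, which blocks let-7 maturation, was at 0 in every library, and LIN28B, which also blocks it, had 20 to 39 counts in each (0.30 to 0.50 FPKM, below the filter). TUT7, which adds uridines to let-7 precursors, had 10.5 ± 1.29 FPKM in NC and 15.7 ± 0.521 FPKM in GRIK1 siRNA (SD, n = 3 each; log2 fold change 0.51, edgeR adjusted p = 0.0572), and without NC library 3 it passed (0.48, edgeR adjusted p = 1.51e-05). IGF2BP2, an mRNA binding protein, had 20.6 to 24.5 FPKM in NC and 22.4 to 23.2 FPKM in GRIK1 siRNA.

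RefSeq promoter windows (GRCh38.p14, 300 bases around a start) were matched for 8 of the 10 members, in 12 windows, and not for HMGA2 or HMGB2. They were searched on both strands for 6 motifs chosen after the values were seen. The CCAAT box (CCAAT) was in 8 of 12 windows, against 34.6% of 35116 promoters, and the GC box (GGGCGG) in 8 of 12, against 45.0%. The E-box (CACGTG) was in 1 of 12, against 7.26%, and TTTGAA, the core of the cell cycle homology region, in 2 of 12, against 15.2%. The E2F core (TTCCCGC) and the AP-1 site (TGACTCA) were in 0 of 12, against 6.55% and 4.95%, which says only that these letters are not in the windows. Parts of the HMGA1 and HMGN3 windows are shown because both genes had lower levels, with the motif in capitals.
HMGA1, GC box, chr6:34236669-34236694, plus strand: tgcgaggagtGGGCGGtcgactcgag
HMGN3, CCAAT box, chr6:79234763-79234787, minus strand: gttgcctcagCCAATggggcctcgc
The HMGA1 window around its first start held 5 GC boxes and 1 CCAAT box, and the HMGN3 window held 2 CCAAT boxes and 0 GC boxes. That HMGA1 CCAAT box lay downstream of the start, at position 38 on the opposite strand, and those of HMGN3 lay upstream, at -95 and -59.

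Other gene lists that share a function or a domain with the HMG genes were described from the same fit. Linker histones compete with HMG proteins for nucleosome linker DNA. Of 7, 4 were tested and 1 passed (against 1.61% of all genes higher), H1-2, which rose from 6.58 ± 0.657 to 12.2 ± 0.146 FPKM (SD, n = 3 each; log2 fold change 0.81, edgeR adjusted p = 0.0433). It lost the call with length correction (0.68, edgeR adjusted p = 0.0687), and passed without NC library 3 (0.80, edgeR adjusted p = 0.00112). H1-10 had 64.3 ± 14.8 and 57.1 ± 5.84 FPKM, with a log2 fold change of -0.25 (edgeR adjusted p = 0.356), and it passed lower without NC library 3 (-0.37, edgeR adjusted p = 0.000872). The median log2 fold change of the 4 tested was 0.42, and 0.43 without NC library 3, where 1 passed in each direction, against 16.9% of all genes higher and 18.3% lower. Of 35 other HMG-box genes 24 were tested and 0 passed in edgeR, with a median below 0.01 in size. Without NC library 3, the median was -0.05, and 4 of 24 passed higher and 7 lower, against 16.9% and 18.3% of all genes. The highest of them were SSRP1, a histone chaperone subunit, with 26.5 ± 1.75 and 22.8 ± 0.559 FPKM, and HMG20B, with 22.2 ± 1.64 and 26.2 ± 4.55 FPKM. SSRP1 passed lower (-0.20, edgeR adjusted p = 0.00668) and HMG20B higher (0.28, edgeR adjusted p = 0.0322) without NC library 3.

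Of 12 genes for nuclear import and modification of HMG proteins 12 were tested and 1 passed, lower, against 1.48% of all genes, with a median of -0.05. The median without NC library 3 was -0.05, and in that fit 3 passed higher and 4 lower, against 16.9% and 18.3% of all genes. KAT2B, an acetyltransferase that modifies HMGA1, fell from 4.32 ± 0.406 to 1.93 ± 0.0814 FPKM (SD, n = 3 each; log2 fold change -1.26, edgeR adjusted p = 0.0240), and without NC library 3 its log2 fold change was -1.11 (edgeR adjusted p = 8.86e-07). The import receptor KPNB1 had 24.4 ± 1.94 and 26.7 ± 0.959 FPKM, and the export receptor XPO1 had 13.3 ± 1.78 and 13.6 ± 0.774 FPKM. Of 6 genes of the SET complex, which holds HMGB2, 5 were tested and 0 passed in edgeR, with a median of -0.43. The median without NC library 3 was -0.24, and in that fit 1 passed higher and 3 lower, against 16.9% and 18.3% of all genes. ANP32B, a histone chaperone of that list, had 140 ± 13.9 and 111 ± 1.43 FPKM, and SET, which gives the complex its name, had a log2 fold change of -0.52 (edgeR adjusted p = 0.181). Both passed without NC library 3, ANP32B at -0.28 (edgeR adjusted p = 0.000116) and SET at -0.24 (edgeR adjusted p = 0.000555). Of 11 HMGB1 receptors and adaptors 6 were tested and 0 passed in edgeR, with a median of -0.24. The median without NC library 3 was -0.02, and in that fit 1 passed in each direction, against 16.9% of all genes higher and 18.3% lower. AGER, the receptor RAGE, had 6.25, 5.63 and 1.72 FPKM in NC and 7.51, 8.40 and 9.78 in GRIK1 siRNA. Its log2 fold change was 0.87 (edgeR adjusted p = 0.203), and 0.50 (edgeR adjusted p = 0.00629) without NC library 3. BECN1, an autophagy protein that HMGB1 binds, had 8.81 ± 1.33 and 5.79 ± 0.0700 FPKM. Its log2 fold change was -0.71 (edgeR adjusted p = 0.0696), and -0.50 (edgeR adjusted p = 4.74e-05) without NC library 3.

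Of 25 proliferation genes, 6 passed, all lower, against 1.48% of all genes, and the median was -0.41. The median without NC library 3 was -0.36, and in that fit 14 passed lower and 0 higher, against 18.3% and 16.9% of all genes. E2F1, a transcription factor of S phase entry, fell by 1.44 on the log2 scale (edgeR adjusted p = 0.0236), and it also passed without NC library 3 (edgeR adjusted p = 2.12e-07). CDC6, which loads the replicative helicase, fell from 5.06 ± 0.532 to 2.61 ± 0.140 FPKM (SD, n = 3 each; edgeR adjusted p = 0.0306). The helicase subunits MCM5, MCM3 and MCM4 fell by 0.88, 0.72 and 0.68 on the log2 scale, and RRM2, a ribonucleotide reductase subunit, fell by 0.88 (edgeR adjusted p from 0.0303 to 0.0369). MCM3 lost its call with length correction (edgeR adjusted p = 0.0509), MCM3 and MCM4 with total count scaling (edgeR adjusted p = 0.0663 and 0.0593), and all 3 MCM genes in limma-trend on log2(FPKM + 1) (adjusted p from 0.0665 to 0.0758). PCNA, the polymerase clamp, had 49.2 ± 7.78 and 43.2 ± 2.60 FPKM (edgeR adjusted p = 0.339). Of the 25, 23 had a log2 fold change below 0 and 2 above it, where 51.4% of all genes were below 0. Without NC library 3, CCNA2 (0.12), CCNB1 (0.03) and CCNB2 (0.11) moved above 0 and MKI67 (-0.07) below it. In that fit 49.3% of all genes were below 0, and PLK1 stayed above it (0.07). In bulk samples, fewer cells of a type and less RNA per cell cannot be told apart.

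**Figure D5:**
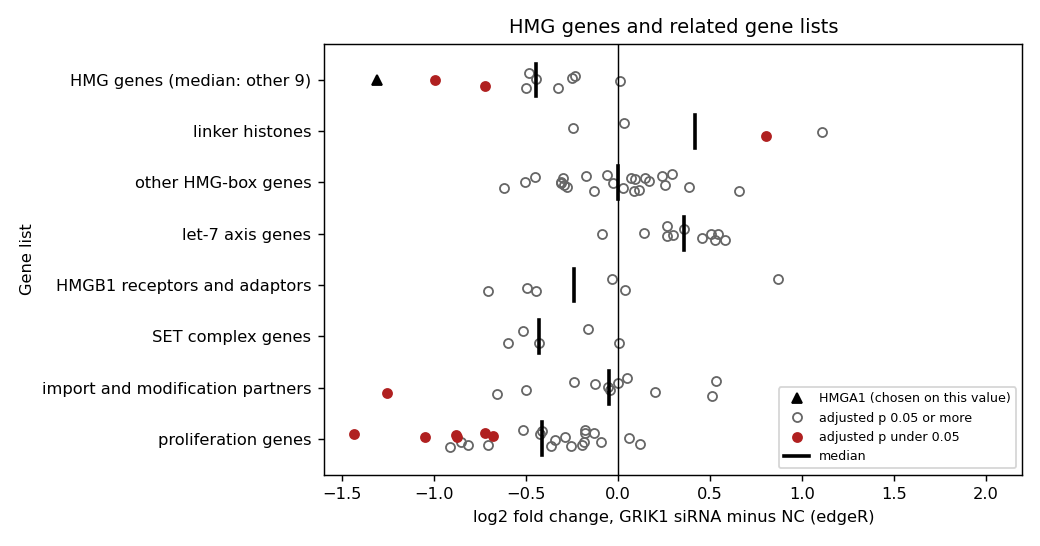
Log2 fold change (GRIK1 siRNA minus NC, edgeR) of each tested gene in the HMG family and 7 related lists, with filled red points for adjusted p under 0.05, a black triangle for HMGA1 and a black bar for the median of each list (for the HMG genes, of the other 9). The red points below 0 are HMGA2, HMGN3, KAT2B and 6 proliferation genes, and the red point above 0 is H1-2.

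The genes with the profile most like HMGA1 were found by the root mean square difference of log2 normalized CPM, centred on each gene's mean over the 6 libraries, among the 4033 other genes whose mean reached 10 FPKM. PTGES, a prostaglandin E synthase, was closest (0.0283), with 376 ± 25.5 FPKM in NC and 166 ± 2.60 FPKM in GRIK1 siRNA. IRF2BPL (0.0484), ALDH1A3, an aldehyde dehydrogenase that makes retinoic acid (0.152), NAT14 (0.156) and RNF167 (0.165) followed. HMGA2 had rank 25 and HMGN3 rank 62, while HMGN4 had rank 2304. These genes were chosen for the pattern, so no test was made.

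Reads of some members can be shared with other genes. The table holds 157 pseudogenes named for the HMG members, of which 61 had a count and 16 were tested. In edgeR 0 passed, against 3.09% of all genes. Without NC library 3, 1 of the 16 passed, HMGN2P46 (lower), against 18.3% of all genes lower and 16.9% higher. The summed counts of the HMGB1 pseudogenes were 12.5% to 17.0% of the HMGB1 count in each library. Those of HMGN2 were 4.92% to 11.8%, those of HMGB3 2.40% to 28.1% and those of HMGA1 at most 0.982%. HMGB1, HMGN2 and HMGB3 values may therefore be less certain, but these counts do not measure how many reads were shared. HMGN2P46 alone gave 237 of 280 HMGN2 pseudogene counts in NC library 1 and 259 of 296 in NC library 2. It was lowest in NC library 3, where HMGN2 was highest. HMGN2P46 had counts of 237, 259 and 131 in NC and 192, 194 and 194 in GRIK1 siRNA, with a log2 fold change of -0.30 (edgeR adjusted p = 0.512), and -0.58 (edgeR adjusted p = 0.000348) without NC library 3. HMGB1P5 had 110, 98 and 267 in NC and 132, 128 and 125 in GRIK1 siRNA, and HMGB1P6 had 89, 117 and 233 in NC and 100, 139 and 159 in GRIK1 siRNA. Both were highest in NC library 3, as HMGB1 was.

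The other members lie on GRCh38 at chr13:30456704-30617597 (HMGB1, minus strand), chr4:173331376-173334432 (HMGB2, minus), chrX:150980509-150990771 (HMGB3, plus), chr21:39342315-39349647 (HMGN1, minus), chr1:26472440-26476642 (HMGN2, plus), chr6:26538366-26546933 (HMGN4, plus) and chrX:81113699-81201913 (HMGN5, minus). HMGA2 (chr12:65824460-65966291, plus strand) overlaps 4 genes. The antisense genes HMGA2-AS1 and RPSAP52 had counts of 78, 84 and 48 and of 264, 246 and 277 in NC, and of 47, 84 and 74 and of 239, 242 and 283 in GRIK1 siRNA, with log2 fold changes of -0.22 each (edgeR adjusted p = 0.676 and 0.301). They were -0.47 and -0.23 (edgeR adjusted p = 0.0923 and 0.104) without NC library 3. ENSG00000277945, on the same strand inside HMGA2, had 38, 62 and 28 in NC and 26, 28 and 17 in GRIK1 siRNA (log2 fold change -1.03, edgeR adjusted p = 0.164; without NC library 3 it passed at -1.30, edgeR adjusted p = 0.00253), and ENSG00000256083 had 11 to 22 counts. HMGN3 (chr6:79201245-79234738, minus strand) overlaps HMGN3-AS1, with 8 to 34 counts. MIR6835 in HMGA1 (chr6:34236873-34246231, plus strand) had 0 to 8 counts, a Y RNA gene in HMGN1 had 0 to 4, and RBM22P2, PTPN2P2, MFAP1P1 and ENSG00000285840 in HMGB1 had 0 to 4. Whether the counting used strand is not given in the sources used here.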

How the data were processed

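RNA of U87-MG cells was sequenced in 3 NC and 3 GRIK1 siRNA libraries, assigned by label. The deposited table of 61806 genes holds the counts that the authors made (whole numbers, no normalization) and the FPKM that the authors computed from them, and also the exonic size of each gene. Recomputing FPKM from count, size and total gave 100% of the deposited values within 0.0051. The submitters' processing notes name cutadapt 1.9.1, HISAT2, HTSeq and GRCh38. A kit library from 1 ug total RNA was used per the labels. The strand setting is not given in the sources used here. Of 20417 missing symbols 688 were filled from a table of gene names, and 0 value columns were left unassigned.

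Genes with a mean FPKM of at least 0.5 (15870) were tested with the quasi-likelihood test of edgeR 4.0.16 (R 4.3.3, TMM, no block, Benjamini-Hochberg), and a gene passed at an adjusted p under 0.05. SE is the absolute log2 fold change over the root of F. GRIK1 was compared on log2(FPKM + 1). Alternatives were DESeq2 1.42.0, limma 3.58.1 (limma-trend), other scalings and filters, a length correction, a replicate block and leaving out each library. The members and gene lists were chosen with earlier results of these data known. Named genes are the members, GRIK1, list genes that passed (at most 6 a list) and the 2 highest of each list, the 3 highest pseudogenes, genes overlapping a member, and the 5 most like HMGA1. AGER and TUT7 belong to the highest of their lists, and H1-10 to its own. A gene that this rule also names is not reported here. LIN28A, LIN28B, ARID3B, CCNA2, CCNB1, CCNB2, MKI67, PLK1 and the 10 glioma line markers were named after their values were seen. Counts of the total depth, 11099909 to 14006968, set the precision, and a count of 0 allows up to 3 counts.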

Additional observations from a re-analysis of the deposited data

How the results depend on the processing

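The direction of HMGA2, HMGN3, HMGB1, HMGB2, HMGN1 and HMGN2 held under all 18 alternatives. HMGA1 lay between -1.34 and -1.22, which is a description only, because the family was chosen by its lower level in these data. Of 180 member values, 9 reversed. HMGN5 became -0.014 without a filter and lay between -0.026 and 0.048 with 1 replicate left out, below 0 without NC replicate 1 (-0.026) and GRIK1 siRNA replicate 3 (-0.020). With 1 replicate left out HMGB3 lay between -0.49 and 0.031, HMGN4 between -0.43 and 0.15, HMGB1P5 between -0.67 and 0.082 and HMGB1P6 between -0.53 and 0.14, each above 0 without NC replicate 3 alone. Without it and with length correction these 4 were 0.092, 0.20, 0.092 and 0.077, and in DESeq2 without it 0.033, 0.15, 0.084 and 0.14. The Y RNA gene in HMGN1 lay between -1.67 and 1.11, above 0 without NC replicate 2 and GRIK1 siRNA replicate 3 (0.10), and HMGN3-AS1 between -0.053 (without GRIK1 siRNA replicate 2) and 0.93. ENSG00000256083 was -0.051 with length correction and without NC replicate 3. The cause was not tested.

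With all 6 libraries, 235 genes passed lower, 255 higher and 224 with an absolute log2 fold change over 1. Those that passed lower included 2 of the 9 members other than HMGA1 (the members counted from here on), and 0 of these 9 passed with that fold. Of the list genes, 7 passed lower and 1 higher. Without a filter the gene counts were 676, 727 and 664, with 13 list genes lower. With a mean FPKM of at least 1, 2 list genes were higher. With total count scaling 183 genes were lower and 311 higher, and 0 of these 9 members passed (edgeR adjusted p = 0.0663 for HMGA2 and 0.0726 for HMGN3). DESeq2 gave 820, 864 and 499, with 13 list genes lower and 3 higher, and length correction 0 list genes higher. In limma-trend with a pseudocount of 1, 140 genes were lower, 267 higher and 113 passed the fold, with 0 members and 4 list genes lower. With 0.1 these were 105, 175 and 125, with 0 and 4. Leaving out 1 replicate at a time gave 0 to 2909 genes lower, 0 to 2682 higher, 0 to 491 with the fold, 0 to 5 members, 0 to 30 list genes lower and 0 to 16 higher. The upper ends are without NC replicate 3, and each other fit gave 0. Added after seeing the data, length correction without NC replicate 3 gave 2895, 2728 and 482, with 4 members, 31 list genes lower and 9 higher, and DESeq2 without it 2148, 2062 and 377, with 4, 25 and 11.

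With the replicate block, alone and with length correction, 0 genes, 0 members and 0 list genes passed in edgeR (3324 and 3213 genes had an unadjusted p under 0.05). Deviations from the group mean correlated at -0.0703, 0.0441 and -0.0425 for same-numbered libraries, and GRIK1 siRNA replicate 2 alone correlated best with its own number. Against each GRIK1 siRNA library, NC replicates 1 and 2 had the opposite sign to NC replicate 3. These values follow NC replicate 3 and cannot decide whether the numbers pair libraries. GRIK1 was higher in GRIK1 siRNA in the 7 alternatives run for it, a pseudocount of 0.1 and each of 6 libraries left out (0.06 to 0.47). Depth limits GRIK1 itself, at 8 to 20 counts.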
